A study of Oryctolagus cuniculus with 17 samples.

Results

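The genes described here encode enzymes and transporters of glycolysis and of the tricarboxylic acid (TCA) cycle in the lung of preterm rabbits. They were taken from the deposited count table by symbol, and where a symbol had several entries the one with the highest total count was kept. Of 37 symbols looked for, 31 had an entry among the 13827 of the table. PGAM1, ENO1, PKM, PDK1, CS and PC had none under those symbols and were not analysed here. The entry under LDHB, a lactate dehydrogenase subunit, had only 2 to 10 counts per sample and did not pass the filter on low counts, so 30 members were tested among 13142 genes. The tested members fell into 13 that catalyse or regulate glycolytic steps, 4 of lactate handling and transport, 4 of pyruvate entry into the mitochondrion, and 9 of the TCA cycle. Glycolytic members means the first pair of these classes, 17 genes.

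Glycolysis splits glucose into pyruvate in the cytosol. Glucose enters through the GLUT transporters, hexokinases trap it as glucose 6-phosphate, and phosphofructokinase commits it to breakdown. Lactate dehydrogenase converts pyruvate to lactate, which monocarboxylate transporters carry across the plasma membrane. Alternatively, the pyruvate dehydrogenase complex, which pyruvate dehydrogenase kinases switch off, turns pyruvate into acetyl-CoA for the mitochondrial TCA cycle. Many glycolytic genes are classical targets of hypoxia-inducible factor, while several TCA enzymes are sensitive to oxidants.

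New Zealand White rabbit pups were delivered by caesarean section on gestation day 28 and kept in 95% oxygen (hyperoxia, groups HT3, HT5 and HT7) or 21% oxygen (normoxia, groups NT3, NT5 and NT7), the number giving the days of exposure. All pups were preterm and fed a milk replacer, so that the normoxia pups are preterm controls and no term lung enters the comparisons. PolyA RNA of whole right lung homogenate was sequenced from 17 samples, 3 per group except 2 in HT5. The methods of the study assign the right lung to RNA, while its results name the left lung. The comparisons asked which members differed between hyperoxia and normoxia at the same age, how that difference moved from day 3 to day 7, and whether glycolytic and TCA members differed in it.

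Counts totalled 13123731 to 18111086 per sample with each locus counted once. Levels are given as CPM, the count scaled to a common library total and normalised for library composition, and differences as the log2 fold change (log2FC, hyperoxia minus normoxia) with its standard error (SE) from edgeR's quasi-likelihood test. The library total used for CPM sums the entries tested, so a locus with several genes enters it more than once. A gene was called when its Benjamini-Hochberg adjusted p over all genes tested was under 0.05, and a differentially expressed gene (DEG) in the stricter sense of the study also needed an adjusted p under 0.01 and a log2FC beyond 2. The study describes the lung samples of a group as independent, and the labels do not tie them to single pups or litters. The samples are lung homogenate, in which fewer cells of a type and less RNA per cell cannot be told apart. Positions are those of the count table on the OryCun2.0 build and mark the whole gene.

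On day 7, 20 of the 30 tested members were called higher in hyperoxia and 1, PDK2, was called lower. Of all genes tested that day, 23.7% were called higher and 23.7% lower. The median log2FC of the members was 0.55, against -0.0078 over all genes, and 28 of 30 were above 0, as were 49.6% of all genes. On day 5, 13 members were called higher and 2, PFKL and PDK2, lower, where the background was 15.9% higher and 15.4% lower. The median of the members was then 0.45, against -0.019 over all genes. On day 3 no member was called, 1.03% of all genes being called in either direction. The edgeR test gave 6 members an unadjusted p under 0.05 on day 3, against 15.3% of all genes, and DESeq2, which called 4% of the genes it gave an adjusted p, called 3 members, namely PFKFB3, SLC2A1 and PDHA1. In all, 14 members were called on days 5 and 7 in the same direction, 1 on day 5 only, 7 on day 7 only and 8 on neither day. The levels of hyperoxia and normoxia did not overlap in 13 members that were higher and 1 that was lower on day 3 (12.8% and 13.9% of all genes), in 18 and 2 on day 5 (26.5% and 29.2%), and in 20 and 1 on day 7 (27.3% and 27.2%).

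**Figure D1:**
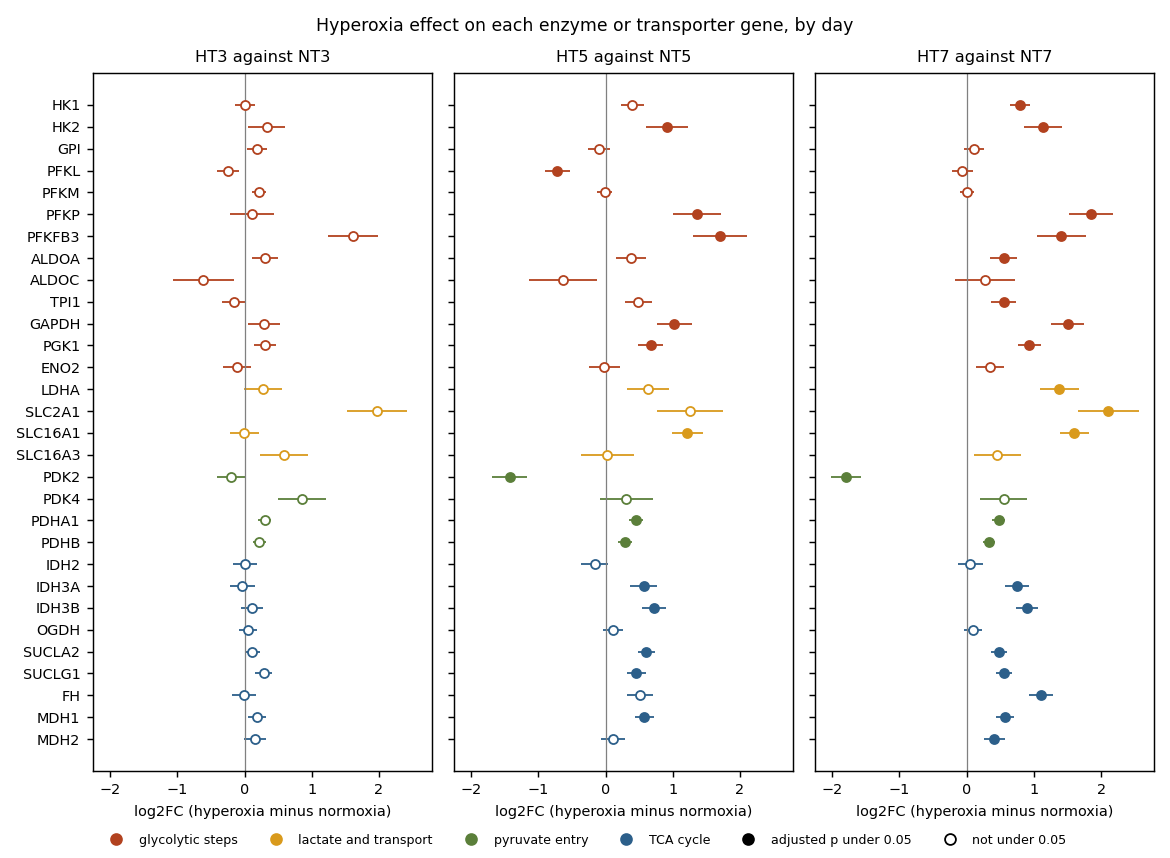
Log2FC of hyperoxia against normoxia (x axis) for the 30 tested members (y axis) on day 3, day 5 and day 7, coloured by class, with bars of 1 SE and filled points where the adjusted p was under 0.05. No point is filled on day 3, while 15 are filled on day 5 and 21 on day 7, and PDK2 lies farthest to the left on both later days.

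The count on day 5 leaned on HT5 replicate 2, without which only 4 members (SLC16A1, PDK2, SUCLA2 and MDH1) were called. A fit without either HT5 sample leaves 1 sample there, which is then assumed to vary like the other groups. SLC16A1, PDK2 and SUCLA2 kept their day 5 calls in all 5 fits that left a sample out. On day 7 the count stayed between 18 and 21 when any single sample was left out. ALDOA, TPI1 and MDH2 lost their calls without HT7 replicate 1, without NT7 replicate 2 or without NT7 replicate 3.

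The glucose transporter gene SLC2A1 had the largest day 7 log2FC of the members. SLC2A1 (ENSOCUG00000005924, chromosome 13, 123841400 to 123906234) encodes GLUT1, the main basal glucose transporter. On day 7 its level was 55.4, 28.7 and 28.6 CPM in HT7 and 11.8, 7.02 and 7.35 CPM in NT7. Every HT7 sample lay above every NT7 sample, and SLC2A1 was the only member past the DEG threshold of the study on any day (4.31-fold higher, log2FC 2.11, SE 0.45, adjusted p = 0.00156), a threshold met by 0.0533%, 1.58% and 4.59% of all genes on days 3, 5 and 7. The day 5 levels were 14.9 and 16.3 CPM in HT5 and 6.18, 4.96 and 8.42 CPM in NT5. The groups were apart, but the difference was not called (log2FC 1.25, SE 0.49, adjusted p = 0.065), though DESeq2 and an edgeR fit of only HT5 and NT5 called it. On day 3 the 3 HT3 samples held 16.6, 62.5 and 17.1 CPM and the NT3 samples 8.85, 8.92 and 6.77 CPM. Here too the groups were apart and edgeR stopped just short of a call (log2FC 1.97, SE 0.45, adjusted p = 0.0518). HT3 replicate 2 set the size of that difference, since log2FC was 1.04 without it, and the same sample had the highest summed level of 6 skeletal muscle markers found of 7 listed, 394 CPM, against 85.6 and 113 CPM in the other HT3 samples. Whether muscle RNA had a part in the SLC2A1 level was not tested.

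HK2 (ENSOCUG00000000197, chromosome 2, 111595446 to 111721018) encodes the inducible hexokinase, which binds mitochondria. It reached 181, 202 and 189 CPM in HT7 and 90.6, 75.8 and 93.6 CPM in NT7. The HT7 samples were all higher and close to each other, at 2.20-fold the normoxia level (log2FC 1.14, SE 0.28, adjusted p = 0.0040). The day 5 levels were 186 and 127 CPM in HT5 and 137, 52.8 and 59.4 CPM in NT5. The groups overlapped through NT5 replicate 1, and the call (log2FC 0.91, SE 0.31, adjusted p = 0.0352) held without NT5 replicate 1 but not without any one of the other 4 samples. HK1, the constitutive hexokinase, was not called on day 5 (log2FC 0.40) and rose on day 7 (log2FC 0.79).

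The genes of the phosphofructokinase step did not move together. PFKFB3 makes fructose 2,6-bisphosphate, the strongest allosteric activator of phosphofructokinase. PFKFB3 (ENSOCUG00000007516, on an unplaced scaffold, 40099 to 135266) measured 106, 121 and 85.2 CPM in HT3 against 35.2, 26.7 and 40.3 CPM in NT3. The groups were well apart on day 3, though the adjusted p was 0.0545 (log2FC 1.61, SE 0.37). Levels on day 5 were 142 and 202 CPM in HT5 and 95.2, 24.3 and 39.0 CPM in NT5. It was called higher there (log2FC 1.70, SE 0.40, adjusted p = 0.00573) although NT5 replicate 1 stood well above the other NT5 samples. On day 7 it was 225, 162 and 142 CPM in HT7 and 64.7, 79.5 and 54.8 CPM in NT7, a 2.66-fold rise (log2FC 1.41, SE 0.37, adjusted p = 0.00577). PFKFB3 thus had a log2FC between 1.41 and 1.70 on all 3 days.

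PFKP (ENSOCUG00000011039, on an unplaced scaffold, 2754451 to 2823265) encodes the platelet form of phosphofructokinase. It stood at 85.8, 35.2 and 61.3 CPM in HT7 and 15, 22.6 and 13.3 CPM in NT7. All HT7 samples were higher, at 3.59-fold (log2FC 1.84, SE 0.33, adjusted p = 0.000363). On day 5 the values were 23.7 and 42.0 CPM against 15.1, 13.2 and 10.3 CPM (log2FC 1.35, SE 0.35, adjusted p = 0.0102). On day 3 they were 18.9, 10.6 and 14.6 CPM in HT3 and 14.8, 11 and 15.1 CPM in NT3, which overlap. PFKL, the liver form (ENSOCUG00000026677, on an unplaced scaffold, 1831 to 6862), went the other way on day 5, with 18.9 and 15 CPM in HT5 and 26.5, 29.4 and 28.0 CPM in NT5. Both HT5 samples were lower (1.65-fold lower, log2FC -0.72, SE 0.18, adjusted p = 0.00921). On day 7 PFKL overlapped between the groups, at 32.8, 23.5 and 21.4 CPM in HT7 and 26.0, 27.5 and 27.7 CPM in NT7 (log2FC -0.06, SE 0.16). PFKM, the muscle form, had a log2FC of 0.21, -0.02 and 0.01 at days 3, 5 and 7, none of them called.

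In the later steps of glycolysis, GAPDH showed the largest rise. GAPDH (ENSOCUG00000029891, chromosome 8, 32580475 to 32584701) oxidises glyceraldehyde 3-phosphate and is often used as a reference gene. Its level was 1091, 483 and 699 CPM in HT7 and 313, 231 and 260 CPM in NT7. The lowest HT7 sample exceeded the highest NT7 sample, and the mean rise was 2.83-fold (log2FC 1.50, SE 0.24, adjusted p = 0.000163). Levels on day 5 were 563 and 527 CPM against 336, 222 and 248 CPM, again apart (log2FC 1.02, SE 0.26, adjusted p = 0.00883). On day 3 it was 231, 242 and 318 CPM against 206, 221 and 221 CPM, which was not called (log2FC 0.29, SE 0.24). The symbol had 3 entries, and the second, on chromosome 9 with 5.51% of its counts, gave a log2FC of 1.57 on day 7 (SE 0.26, adjusted p = 0.000202). Reads of near-identical copies may have been split among such entries.

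The other glycolytic steps are given by their range. PGK1, ALDOA and TPI1 were called higher on day 7 with log2FC 0.93, 0.55 and 0.55, and PGK1 on day 5 also (log2FC 0.67). They encode phosphoglycerate kinase, the main aldolase and triosephosphate isomerase. GPI, which interconverts glucose 6-phosphate and fructose 6-phosphate, had log2FC 0.11 on day 7. ALDOC, a brain-type aldolase with 32 to 140 counts per sample, and ENO2, the neuronal enolase, whose locus and counts the table shares with LRRC23, had log2FC 0.27 and 0.35. None of these last 3 was called on any day. Of the 13 tested glycolytic steps, 5 were called higher and 1 lower on day 5, and 8 higher and 0 lower on day 7.

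**Figure D2:**
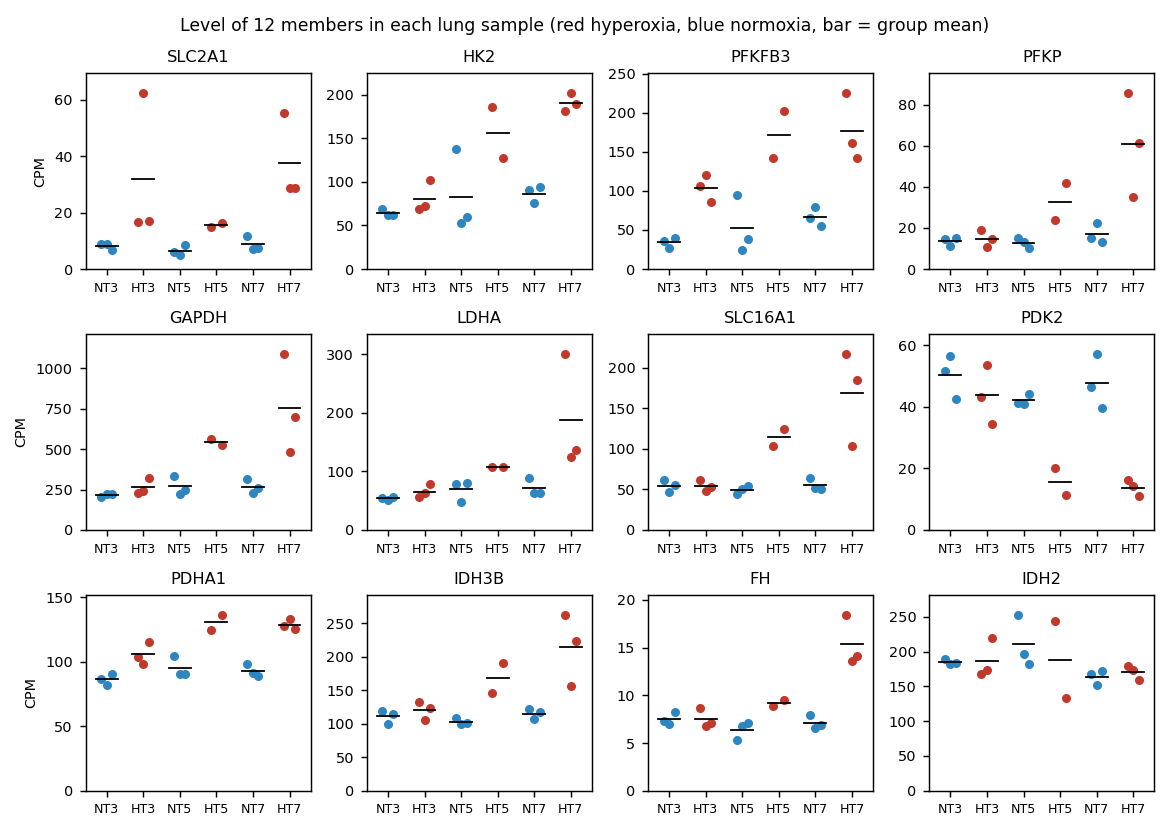
Level in CPM (y axis, from 0) of 12 members in each of the 17 lung samples by group (x axis), hyperoxia in red, normoxia in blue, bars at the group means. HT7 lies above NT7 without overlap in 10 panels, PDK2 lies below, and IDH2 overlaps.

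Of the lactate genes, LDHA was called on day 7 only. LDHA (ENSOCUG00000015939, on an unplaced scaffold, 2324374 to 2336699) encodes the lactate dehydrogenase subunit that favours lactate production. It measured 301, 125 and 136 CPM in HT7 and 88.7, 63.6 and 63.6 CPM in NT7. All HT7 samples were higher (2.60-fold, log2FC 1.38, SE 0.29, adjusted p = 0.00117). HT7 replicate 1 was far above the others, and without it log2FC was 0.86 and still called. On day 5 LDHA stood at 107 and 108 CPM against 78.2, 48.3 and 80.6 CPM, apart but not called (log2FC 0.63, SE 0.31, adjusted p = 0.133). The entry under LDHB, the partner subunit (chromosome 15, 60214221 to 60215640, a span of 1420 bases), held 107 counts over all 17 samples. Whether this short entry is the functional gene is not known here, so it says nothing of the LDHB level, and the balance of the subunits was not measured.

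The lactate and pyruvate transporter SLC16A1, or MCT1 (ENSOCUG00000016776, chromosome 13, 51249967 to 51265195), was called on days 5 and 7. On day 3 it was at 61.1, 48.5 and 53.5 CPM in HT3 and 61.9, 46.8 and 54.9 CPM in NT3, fully overlapping. By day 5 it had 104 and 125 CPM against 44.4, 49.9 and 53.7 CPM (2.32-fold, log2FC 1.21, SE 0.23, adjusted p = 0.00171). On day 7 it was at 218, 104 and 185 CPM against 64.5, 52.3 and 50.2 CPM (3.04-fold, log2FC 1.60, SE 0.21, adjusted p = 4.28e-05). On both later days every hyperoxia sample exceeded every normoxia sample. SLC16A3, or MCT4, a lactate exporter of strongly glycolytic cells, had log2FC 0.58, 0.03 and 0.46 on days 3, 5 and 7 and was not called, with 112 to 587 counts per sample.

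Among the genes of pyruvate entry, PDK2 fell while PDHA1 and PDHB, subunits of the complex it controls, rose. PDK2 (ENSOCUG00000022357, chromosome 19, 37508908 to 37556596) phosphorylates and inactivates pyruvate dehydrogenase. It measured 16.0, 14.2 and 11.1 CPM in HT7 and 46.3, 57.2 and 39.7 CPM in NT7. All HT7 samples were lower, and the fall of 3.47-fold (log2FC -1.80, SE 0.23, adjusted p = 2.59e-05) had the smallest adjusted p of any member that day. At day 5 PDK2 was at 20.2 and 11.2 CPM against 41.3, 40.9 and 44.1 CPM, 2.69-fold lower (log2FC -1.43, SE 0.26, adjusted p = 0.0012). On day 3 it overlapped, at 43.1, 53.6 and 34.4 CPM in HT3 and 51.5, 56.6 and 42.5 CPM in NT3 (log2FC -0.20, SE 0.22).

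PDK4 (ENSOCUG00000017120, chromosome 10, 33584313 to 33596086) is the kinase that fasting and glucocorticoids are known to induce. Its level was 175, 194 and 179 CPM in HT3 against 131, 68.2 and 104 CPM in NT3, and 256, 240 and 189 CPM in HT7 against 210, 183 and 76.1 CPM in NT7. The groups were apart on day 3 and overlapped on day 7, and PDK4 was not called on any day (log2FC 0.86, 0.31 and 0.55 on days 3, 5 and 7). PDHA1 (ENSOCUG00000014748, chromosome X, 5084438 to 5190200) encodes the catalytic alpha subunit of pyruvate dehydrogenase. It stood at 128, 133 and 126 CPM in HT7 against 98.2, 91.1 and 89.0 CPM in NT7. The HT7 samples lay close to each other and all above NT7 (1.39-fold, log2FC 0.47, SE 0.09, adjusted p = 0.00069). On day 5 PDHA1 was at 125 and 137 CPM against 105, 90.9 and 90.8 CPM (log2FC 0.46, SE 0.10, adjusted p = 0.00415). PDHB, the beta subunit (ENSOCUG00000015632, chromosome 9, 25212879 to 25219433), was at 86.9, 93.9 and 80.5 CPM in HT7 and 69.9, 66.6 and 71.0 CPM in NT7, higher in all HT7 samples (log2FC 0.33, SE 0.09, adjusted p = 0.00958). At day 5 PDHB was at 82.4 and 81.5 CPM in HT5 and 67.7, 63.7 and 70.0 CPM in NT5, and that call (log2FC 0.29, SE 0.11, adjusted p = 0.0496) was lost whichever of the 5 samples was left out.

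Within the TCA cycle, 5 of 9 tested members were called higher on day 5 and 7 of 9 on day 7, and none was called lower. FH (ENSOCUG00000021494, chromosome 16, 31438088 to 31463869) encodes fumarase, which hydrates fumarate to malate. It measured 18.5, 13.6 and 14.1 CPM in HT7 and 7.93, 6.61 and 6.85 CPM in NT7. All HT7 samples were higher (2.16-fold, log2FC 1.11, SE 0.18, adjusted p = 0.000157), the largest rise of a TCA member, on 88 to 320 counts per sample. Its day 5 levels were 8.87 and 9.47 CPM against 5.33, 6.81 and 7.08 CPM, apart but not called (log2FC 0.52, SE 0.20, adjusted p = 0.0567). The symbol had a pair of further entries, with 4.19% and 3.15% of its counts.

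The NAD-dependent isocitrate dehydrogenase, a regulated step of the cycle, was measured through its catalytic subunit IDH3A and its subunit IDH3B. IDH3B (ENSOCUG00000024051, chromosome 4, 9687023 to 9723940) was at 263, 156 and 223 CPM in HT7 and 122, 106 and 118 CPM in NT7, with all HT7 samples higher (log2FC 0.89, SE 0.16, adjusted p = 0.000432). Its day 5 levels were 146 and 191 CPM against 108, 99.4 and 101 CPM (log2FC 0.71, SE 0.18, adjusted p = 0.00804). IDH3A (ENSOCUG00000015765, on an unplaced scaffold, 578771 to 595301) was at 131, 98.8 and 113 CPM in HT7 and 75.1, 53.8 and 74.4 CPM in NT7, again apart (log2FC 0.75, SE 0.18, adjusted p = 0.00361). Its day 5 levels were 82.6 and 82.1 CPM against 70.7, 44.9 and 51.3 CPM (log2FC 0.57, SE 0.20, adjusted p = 0.0445), a call that held only without NT5 replicate 1 among the 5 fits that left a sample out. IDH2 (ENSOCUG00000010508, on an unplaced scaffold, 1555388 to 1569205), the mitochondrial NADP-dependent enzyme, was at 180, 174 and 160 CPM in HT7 and 168, 152 and 173 CPM in NT7. Its groups overlapped on every day, and its log2FC at days 3, 5 and 7 was 0.01, -0.16 and 0.06, with SE 0.18 to 0.20. The day 5 value rests on HT5 samples that lay far apart, at 134 and 243 CPM, against 182 to 253 CPM in NT5.

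SUCLA2 (ENSOCUG00000025889, on an unplaced scaffold, 1373840 to 1437340) encodes the ADP-forming beta subunit of succinyl-CoA ligase. It rose on both later days, with 87.9 and 83.3 CPM in HT5 against 57.6, 49.2 and 61.8 CPM in NT5 (log2FC 0.61, SE 0.13, adjusted p = 0.00295). On day 7 it was at 87.2, 76.3 and 91.8 CPM against 66.0, 57 and 60.2 CPM (log2FC 0.48, SE 0.12, adjusted p = 0.00339). Both days kept the groups apart. MDH1, the cytosolic malate dehydrogenase of the malate-aspartate shuttle (ENSOCUG00000006166, chromosome 2, 122817557 to 122834837), was at 181 and 144 CPM in HT5 and 122, 91.1 and 113 CPM in NT5 (log2FC 0.58, SE 0.14, adjusted p = 0.00811). On day 7 it was at 184, 191 and 154 CPM against 135, 111 and 110 CPM (log2FC 0.57, SE 0.13, adjusted p = 0.00242). SUCLG1, the alpha subunit of succinyl-CoA ligase, and MDH2, the mitochondrial malate dehydrogenase, had log2FC 0.56 and 0.41 on day 7, both called, and SUCLG1 was also called on day 5 (log2FC 0.45). OGDH, the first subunit of the 2-oxoglutarate dehydrogenase complex, had log2FC 0.06, 0.11 and 0.10 on the 3 days and was not called.

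Glycolytic and TCA members were contrasted in their median log2FC and in a class level per sample. The median log2FC was 0.21 for the glycolytic and 0.11 for the TCA members on day 3, while day 5 gave 0.49 and 0.52 and day 7 gave 0.79 and 0.56. The difference of these medians was 0.094, -0.031 and 0.24 on days 3, 5 and 7. It depended on where the classes were bounded, since with the 13 glycolytic steps alone against the TCA members plus PDHA1 and PDHB it was 0.063, -0.059 and 0.073. Called shares were 6 higher and 1 lower of 17 glycolytic against 5 higher of 9 TCA members on day 5, and 11 of 17 against 7 of 9, all higher, on day 7. No test was made of the contrast, since members are not replicates. The glycolytic members ranged more widely on day 7, from log2FC -0.06 to 2.11, than the TCA members, from 0.06 to 1.11.

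A class level per sample, the mean over a class of each gene's log2 CPM less that gene's mean over all samples, shows how single samples weigh in this. The glycolytic level was 1.15, 0.37 and 0.56 in HT7 and 0.02, -0.19 and -0.26 in NT7. The TCA level was 0.60, 0.30 and 0.32 in HT7 and -0.03, -0.20 and -0.16 in NT7. HT7 replicate 1 was the highest sample in both classes. The glycolytic level less the TCA level was 0.55, 0.07 and 0.24 in HT7 and 0.05, 0.0052 and -0.09 in NT7, groups that came close without overlapping. The means of this difference were 0.29 ± 0.25 (SD, n = 3) in HT7 and -0.012 ± 0.072 (SD, n = 3) in NT7, HT7 replicate 1 being the highest. On day 3 it was -0.15, 0.04 and -0.01 in HT3 and -0.16, -0.27 and -0.24 in NT3, again without overlap, with means of -0.039 ± 0.10 (SD, n = 3) and -0.22 ± 0.058 (SD, n = 3). On day 5 it overlapped, at 0.07 and 0.09 in HT5 and 0.12, -0.23 and -0.09 in NT5, and the mean was higher in HT5, the opposite sign to the difference of the medians. Without HT7 replicate 1 the difference of the day 7 medians was 0.15, and without HT7 replicate 2 it was 0.36. On day 3 it ranged from 0.038 to 0.16 when any single sample was left out, and on day 5 it turned to 0.16 without HT5 replicate 2 and to 0.065 without NT5 replicate 1.

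**Figure D3:**
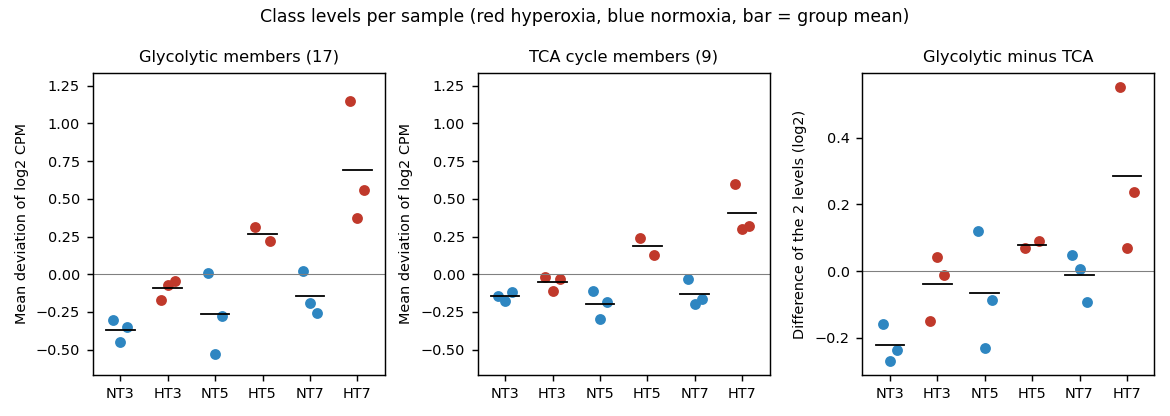
Mean deviation of log2 CPM from the gene means (y axes) in each sample by group (x axis) for the 17 glycolytic and the 9 TCA members, and the difference between both levels on an axis of its own, hyperoxia in red, normoxia in blue, bars at the group means. HT7 replicate 1 is the highest point of each panel, and on day 5 the difference overlaps between the groups.

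Over time, 16 members were called within hyperoxia and 0 within normoxia, where edgeR called no gene at all. Between HT3 and HT7, 15 members were called higher and 1, PDK2, lower, where 22.3% of all genes were called higher and 22% lower. PFKP (log2FC 2.05, SE 0.33, adjusted p = 0.000236), SLC16A1 (1.64, SE 0.21, adjusted p = 5.74e-05), GAPDH (1.52, SE 0.24, adjusted p = 0.000207) and LDHA (1.51, SE 0.29, adjusted p = 0.000731) rose most, and PDK2 fell by 1.67 on the log2 scale (SE 0.22, adjusted p = 6.87e-05). Between NT3 and NT7, edgeR called no member and no gene (0%), with 2 members, PFKFB3 and PGK1, at an unadjusted p under 0.05 against 6.27% of all genes, and DESeq2 called no member and 0.297% of genes. Levels in NT3 and NT7 did not overlap in 9 members that were higher and 1 that was lower in NT7 (8.66% and 8.74% of all genes). Of the 17 glycolytic members, 8 were apart and higher in NT7, and their median log2FC was 0.23, against 0.0067 over all genes. Between HT3 and HT7, 16 members were apart and higher and 2 lower (25.9% and 24.8% of all genes).

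The change of the hyperoxia effect from day 3 to day 7, tested as an interaction, was called for 8 members, 7 higher and 1 lower, against 9.52% higher and 11% lower over all genes. PFKP (1.73 on the log2 scale, SE 0.46, adjusted p = 0.0171) and SLC16A1 (1.61, SE 0.30, adjusted p = 0.00322) gained most, and PDK2 changed by -1.60 (SE 0.31, adjusted p = 0.00397). GAPDH, FH, HK1, IDH3A and IDH3B were the others, with changes between 0.78 and 1.21. SLC2A1 and PFKFB3, the members with the largest log2FC on day 3, had a change of 0.14 (SE 0.62) and -0.20 (SE 0.51), neither called. The count was 4 without NT7 replicate 2 and 5 without HT3 replicate 2.

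The levels of cell markers are given beside these results. Counts called on day 7 read against the 23.7% of all genes called in each direction, which the neutrophil, macrophage and alveolar type 2 counts do not clearly leave. HT7 replicate 1 also had the highest summed level of 7 neutrophil markers, 3465 CPM against 1050 and 1545 CPM in the other HT7 samples and 1067 to 1159 CPM in NT7. Of 6 neutrophil markers tested, 1 was called higher on day 7. On day 3 the neutrophil sum was 1142 to 1677 CPM in HT3 and 300.5 to 799.6 CPM in NT3, with 0 of 6 called and 5 at an unadjusted p under 0.05. The alveolar type 2 sum was also higher without overlap (24579 to 27801 CPM in HT3, 17331 to 20211 CPM in NT3). The endothelial sum was lower without overlap (1988 to 2357 against 2449 to 2777 CPM). So were the fibroblast (4096 to 4354 against 5124 to 5789 CPM), cycling (60.2 to 74.5 against 101 to 141 CPM) and heart muscle sums. TIE1 (endothelial) and ACTC1 (heart muscle) were called lower. The other sums overlapped that day. Of 8 macrophage markers 7 were found, and their sum was 1825 to 2406 CPM in HT7 and 1114 to 1314 CPM in NT7, with 2 called higher and 1 lower. The 6 endothelial markers summed to 708 to 1105 CPM in HT7 and 2073 to 2485 CPM in NT7, 5 of them called lower. Of 6 alveolar type 1 markers 5 were found, at 1937 to 2539 CPM in HT7 and 6464 to 7245 CPM in NT7, 3 called lower. The surfactant-producing alveolar type 2 cells, whose 6 found markers mark the tissue as lung, were at 13345 to 29240 CPM in HT7 and 17108 to 23067 CPM in NT7, with 1 called higher and 2 lower. All 5 lymphocyte markers tested were called lower on day 7, their sum being 1.08 to 2.60 CPM in HT7 and 7.52 to 11.7 CPM in NT7. Of 5 erythroid markers 4 were called lower, at 50.1 to 70.5 CPM in HT7 and 125 to 215 CPM in NT7. Of 5 fibroblast markers 1 was called higher and 2 lower. On day 5, of 6 markers each, 5 endothelial markers (1001 to 1070 CPM in HT5, 2003 to 2501 CPM in NT5) and 4 of cycling cells (81.1 to 249 CPM in HT5, 411 to 497 CPM in NT5) were called lower. Of 5 markers each, 3 of alveolar type 1 cells (2219 to 3795 CPM in HT5, 5595 to 6814 CPM in NT5) and 3 of fibroblasts (2663 to 3271 CPM in HT5, 4227 to 4876 CPM in NT5) were also lower that day, and 2 of 6 neutrophil markers were higher (706 to 953 CPM in HT5, 160.4 to 699 CPM in NT5). The macrophage sum was 1672 to 1811 CPM in HT5 and 845 to 1535 CPM in NT5, with 1 of 7 markers called higher, and the erythroid sum 71.6 to 82.0 CPM in HT5 and 98.5 to 182 CPM in NT5, with 1 of 5 called lower. Of all genes, 15.9% were called higher and 15.4% lower on day 5, which the macrophage and erythroid counts do not clearly leave. Between HT3 and HT7, 5 of 6 endothelial, 5 of 6 skeletal muscle, 4 of 6 alveolar type 2 and 3 of 5 alveolar type 1 markers were called lower. Only 3 of the 6 skeletal muscle markers were lower in HT7 without overlap. All 6 cycling markers were called higher over that interval. They also rose from NT3 to NT7 (median log2FC 1.11), 5 of them at an unadjusted edgeR p under 0.05, though none was called. Neither HT7 against NT7 nor the interaction called any cycling marker. No marker found was at 0 in every sample. HT5 replicate 1 had a skeletal muscle sum of 362 CPM, against 61.0 CPM in HT5 replicate 2 and 90.5 to 114 CPM in NT5. On day 5, 4 of 6 such markers were called higher and 1 lower, but only 1 was higher without overlap. The part of these cell types in the members' levels was not tested. Without HT7 replicate 1, log2FC on day 7 was 1.72 for SLC2A1, 1.51 for PFKP, 1.38 for SLC16A1, 1.14 for GAPDH and 0.96 for FH, all still called.

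Other genes of the same pathways were taken from lists. Of 19 further glycolysis genes tested, 4 were called higher and 5 lower on day 7, near the background in both directions, with a median log2FC of 0.25. TIGAR, a p53-inducible phosphatase that removes fructose 2,6-bisphosphate, rose on day 5 (log2FC 3.54, SE 0.38, adjusted p = 6.15e-05) and on day 7 (log2FC 3.00, SE 0.36, adjusted p = 1.69e-05). ENO3, the muscle enolase, and PGM2, a phosphoglucomutase, rose with log2FC 1.72 and 0.90 on day 7. SLC2A12, a glucose transporter, HK3, the myeloid hexokinase, and BPGM, which makes 2,3-bisphosphoglycerate, fell with log2FC -1.33, -1.20 and -1.06.

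Of 27 further TCA and pyruvate genes, 15 were called higher and 4 lower on day 7, with a median log2FC of 0.43, and 6 and 2 on day 5. Of all genes, 23.7% were called in each direction on day 7, and 15.9% higher and 15.4% lower on day 5. The malic enzymes ME1 and ME2 (log2FC 1.33 and 1.19) and the cytosolic isocitrate dehydrogenase IDH1 (1.07) rose most on day 7. The OGDH paralogue OGDHL (-1.26), PDP1, the phosphatase that reactivates pyruvate dehydrogenase (-0.83), and PDK3 (-0.51) fell most. Of 38 respiratory chain and ATP synthase subunits, 25 were called higher and 1, COX4I1, lower on day 7, with a median log2FC of 0.55, and 10 and 1 on day 5. COX7B (1.26), UQCRQ (1.23) and ATP5PB (1.10) rose most.

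Hypoxia-inducible genes outside the members had no common direction on day 7. Of 23 tested, 7 were called higher and 8 lower that day, against 23.7% of all genes in each direction, with a median log2FC of -0.021. CA12, a carbonic anhydrase (log2FC 4.52), and EGLN3, a prolyl hydroxylase of hypoxia-inducible factor (1.97), were among those that rose. VEGFA, the vascular growth factor (-2.20), MXI1, a MYC antagonist (-1.51), and INSIG2, a regulator of sterol synthesis (-1.31), fell most. On day 5, 3 were called higher and 6 lower, against 15.9% and 15.4% of all genes, with a median log2FC of -0.19. The groups were apart that day in 6 that were higher and 10 that were lower (26.5% and 29.2% of all genes).

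**Figure D4:**
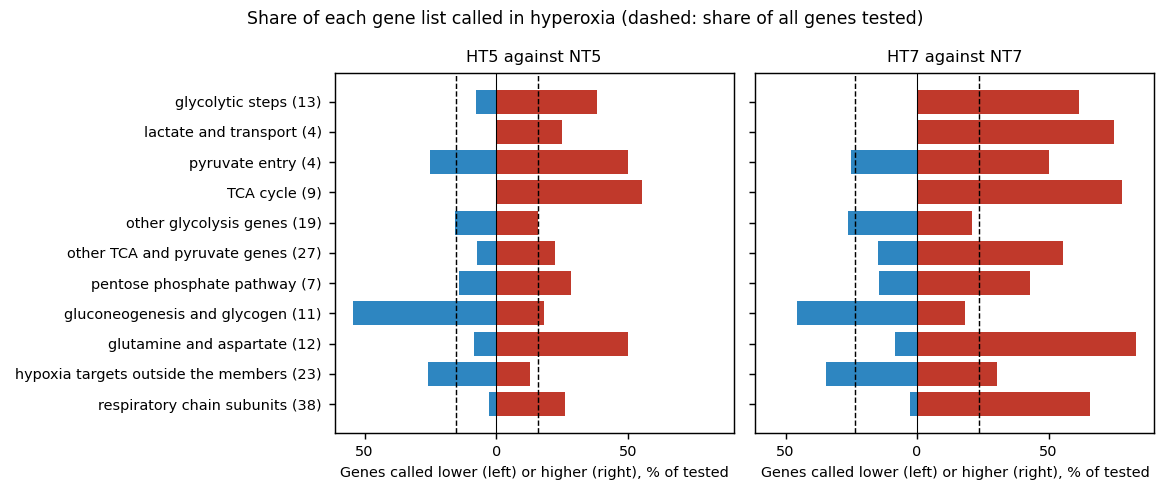
Percent of the tested genes of each list (y axis, number tested in brackets) called lower (blue, to the left) or higher (red, to the right) in hyperoxia on day 5 and day 7, with dashed lines at the share of all genes tested. On day 7 the red bars of all lists pass the line except those of the other glycolysis genes and of gluconeogenesis and glycogen, and hypoxia targets outside the members pass it on both sides.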

How the data were processed

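Lungs of preterm rabbits in 6 groups were sequenced by the submitters from stranded polyA libraries. The processing notes of the submitters name FastQC, STAR 2.7.10a and the OryCun2.0 build, while the counting program and its strand setting are not given in the sources used here. The deposited values are raw counts per locus, which the authors did not normalise, and a locus with several genes (434 of 13313 loci) is listed under every one of them with identical counts. Here the counts were tested with edgeR 4.0.16 in R 4.3.3 by the quasi-likelihood test, with 6 group means over all 17 samples, the filterByExpr filter, TMM factors (0.958 to 1.05) and Benjamini-Hochberg adjustment over 13142 genes. Log2 CPM values used a prior count of 2. DESeq2 1.42.0, other scalings and filters, fits of only the groups compared, a stricter threshold and leaving out each sample were tried as alternatives. The script was tested on simulated counts.

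The members, classes and gene lists were chosen with earlier results of these data known. Values in single samples, though not on every day, are given for members past the DEG threshold, for the 3 largest called rises and falls per class on day 5 or day 7 with groups apart, and for known control points. Members outside that rule were named to account for all of them. From other lists, up to 3 called genes in each direction are named, and some that the rule would name are not reported here. Deviations from the group means were weakly correlated between same-numbered samples of a day (0.131 to 0.199 over 3 pairs on day 3, 0.141 and 0.264 over 2 pairs on day 5, 0.0695 to 0.174 over 3 on day 7). Differently numbered samples were not compared in this way, so these values do not show a pairing, and the labels do not say what the numbers mean. No 2 samples were identical, and replicates of a group differed by more than sampling noise. No sequences of the rabbit build were used here.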

Additional observations from a re-analysis of the deposited data

Results flagged for a closer look

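The effect of hyperoxia differed between day 3 and day 7 for 8 members in an interaction test (edgeR, Benjamini-Hochberg over all genes tested). SLC16A1 had log2FC -0.0041 on day 3 and 1.60 on day 7, a change of 1.61 (SE 0.30, adjusted p = 0.00322). PDK2 went from -0.20 to -1.80, a change of -1.60 (SE 0.31, adjusted p = 0.00397). FH went from -0.0050 to 1.11, a change of 1.12 (SE 0.25, adjusted p = 0.00772), and PFKP from 0.11 to 1.84, a change of 1.73 (SE 0.46, adjusted p = 0.0171). These 4 kept their call whichever of the 12 samples was left out.

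HK1 changed by 0.79 (SE 0.21, adjusted p = 0.0196) and lost its call without NT7 replicate 2. GAPDH changed by 1.21 (SE 0.33, adjusted p = 0.0209) and lost its call without HT3 replicate 2 or without NT7 replicate 2. IDH3B, with 0.78 (SE 0.23, adjusted p = 0.0272), and IDH3A, with 0.78 (SE 0.26, adjusted p = 0.0437), lost theirs in 6 and 9 of the 12 fits that left a sample out, among them those without HT7 replicate 1 and without HT3 replicate 2. Both comparisons behind a change use separate samples.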

How the results depend on the processing

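Alternatives moved counts of called members on days 3 and 5 and in the interaction, and their causes were not tested. On day 3 (0 members in the results above) DESeq2 called 3, scaling by totals only 1 (SLC2A1), fitting only the groups compared 1 (PFKFB3), and leaving out 1 sample 0 to 1. On day 5 (15) an adjusted p under 0.01 left 9, which a stricter threshold brings by construction, and leaving out 1 sample gave 4 to 15. For the change from day 3 to day 7 (8) an adjusted p under 0.01 left 3, and leaving out 1 sample gave 4 to 11. The difference of the glycolytic and TCA medians on day 5 (-0.031) ran from -0.089 to 0.16 when 1 sample was left out. That on day 7 (0.24) was 0.073 with other class borders, and on day 3 (0.094) leaving out 1 sample gave 0.038 to 0.16. The count on day 7 (18 to 21) and that of HT7 against HT3 (13 to 20) stayed within 1.5 times under the alternatives run. Of the alternatives for single members, 2299 kept direction and side of the threshold, 90 lost a call, 41 gained one and 0 turned. In the fit with the replicate block, 0, 14 and 21 members were called on days 3, 5 and 7 and 10 in the interaction. All pair correlations of days 3 and 5 were over 0.1, and day 7 had 1 under it. HT5 held 2 samples, and the entry under LDHB was too low to test.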

Other observations

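Counts in these lists read against 23.7% of all genes called in each direction on day 7, and 15.9% higher and 15.4% lower on day 5. Of 12 genes of glutamine, serine and aspartate metabolism tested, 10 were called higher and 1 lower on day 7, with a median log2FC of 0.58, and 6 and 1 on day 5. Asparagine synthetase ASNS (log2FC 1.85, SE 0.26, adjusted p = 5.92e-05), the cytosolic aspartate aminotransferase GOT1 (1.30, SE 0.16, adjusted p = 1.84e-05) and PSAT1 of serine synthesis (1.11, SE 0.25, adjusted p = 0.00197) rose most on day 7, and the alanine aminotransferase GPT2 fell (-1.55, SE 0.47, adjusted p = 0.0135). Of 7 pentose phosphate genes, 3 were called higher on day 7, RPE (0.66) and PGD (0.60) among them, and 1 lower, TKTL1 (-2.96). Of 11 genes of gluconeogenesis and glycogen, 2 were called higher and 5 lower on day 7, and 2 and 6 on day 5. The glycogen branching enzyme GBE1 (1.12) and UGP2, which makes UDP-glucose (0.84), rose, while muscle glycogen phosphorylase PYGM (-2.15), glycogenin GYG1 (-2.03) and the glucose 6-phosphate transporter SLC37A4 (-0.90) fell most.

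Of 7 transcription factors and regulators of the hypoxia response, 3 were called higher and 3 lower on day 7, against 23.7% of all genes in each direction. HIF1A (log2FC 1.21, SE 0.16, adjusted p = 5.01e-05), its partner ARNT (1.35, SE 0.23, adjusted p = 0.000284) and MYC (1.69, SE 0.27, adjusted p = 0.000155) rose. HIF3A (-1.57, SE 0.42, adjusted p = 0.00642) and EPAS1, the endothelial hypoxia-inducible factor (-0.92, SE 0.20, adjusted p = 0.00159), fell, as did VHL (-0.24, SE 0.094, adjusted p = 0.0499).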
